A study of Rattus norvegicus with 48 samples.

Results

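Expression of 9 genes of the actin cytoskeleton was followed in cerebral endothelial cells (CECs) of fed and fasted rats. They were Baiap2, the beta- and gamma-actin genes Actb and Actg1, the alpha-actinin genes Actn1 and Actn4, and Actr2, Actr3, Arpc2 and Arpc3, which encode subunits of the Arp2/3 complex. Baiap2 was chosen by its read counts, which were higher on each day of fasting, so its values are given as a description with no test. The other 8 genes were listed to ask whether actin genes moved with it. All 9 genes were among the 13050 features with at least 1 read in each sample, out of 32624 in the count files, so none was lost to the filter.

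The cells came from the cerebral cortex of male Wistar-Han rats that ate ad libitum (AL) or had been fasted for 1 day (F1), 2 days (F2) or 3 days (F3), without any other treatment in these groups. Each group had 3 samples, named i, j and k, and each sample was CECs from pooled cortexes, from which CD11b+ cells had been removed before CD31+ cells were retained on magnetic columns. Polyadenylated RNA was sequenced in 4 technical replicates per sample, whose reads were summed here to 20718644 to 25960874 assigned reads per sample. One technical replicate (d) of F1 sample k carried an F1 title beside a 2-day treatment label; it differed from the other 3 by no more than sampling noise (chi-square per degree of freedom 1.002, against 10.01 for F2 sample i), was kept in F1, and changed no call below when left out.

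BAIAP2, also known as IRSp53, is an adaptor whose I-BAR domain bends membranes outwards and binds actin. It links the small GTPases Cdc42 and Rac to actin regulators such as the WAVE complex. The Arp2/3 complex is the nucleator that starts a new filament as a branch on an existing one, with ARP2 and ARP3 as the actin-like base of the new filament. Alpha-actinins cross-link filaments into bundles and tie them to adhesions. In brain endothelium, cortical actin anchors the tight and adherens junctions that close the blood-brain barrier.

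The proximal promoters of Baiap2 and Actr3 are shown because the read counts of these 2 genes differed from AL in opposite directions. Each runs from 250 bases before to 50 bases after the annotated start in the RefSeq annotation of GRCr8, a newer build than the Rnor_6.0 used for the counts. Capitals mark matches to the motifs searched other than GGGCGG, of which Actr3 held none.
Baiap2, chr10:105721306-105721605, plus strand: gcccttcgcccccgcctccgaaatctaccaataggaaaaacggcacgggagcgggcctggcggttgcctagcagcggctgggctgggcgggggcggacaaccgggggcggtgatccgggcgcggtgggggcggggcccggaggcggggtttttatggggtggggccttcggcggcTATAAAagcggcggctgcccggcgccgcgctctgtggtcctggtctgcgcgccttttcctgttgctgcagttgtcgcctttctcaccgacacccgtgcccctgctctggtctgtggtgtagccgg
Actr3, chr13:39396460-39396759, minus strand: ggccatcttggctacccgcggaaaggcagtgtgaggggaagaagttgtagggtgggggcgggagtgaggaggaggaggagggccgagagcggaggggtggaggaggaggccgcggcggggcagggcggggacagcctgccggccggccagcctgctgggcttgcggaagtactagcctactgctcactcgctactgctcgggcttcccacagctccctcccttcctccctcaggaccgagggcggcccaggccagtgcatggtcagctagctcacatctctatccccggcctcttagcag
Of the 9 genes, 7 had a promoter in the table used, and Actb and Actn4 had none. The 5 motifs were searched on both strands: the CArG box of serum response factor, TATAAA of the TATA box, the Sp1 family motif GGGCGG, the FOXO family motif TGTTTAC, and AGGTCA repeated after 1 base, the site of PPAR with RXR. Baiap2 held TATAAA 75 bases before its start, a string present in 14.2% of 33469 rat promoters of this length, and no other of the 7 genes held it. The CArG box was found in Actg1 alone, 90 bases before the start, and in 1.64% of all promoters. GGGCGG occurred in all 7 and in 33.1% of all promoters, whereas TGTTTAC (in 3.78% of all promoters) and the AGGTCA repeat (in 0.0538%) were in none of the 7. GGGCGG holds only G and C. The Arpc3 promoter had 51.7% G and C and the others 68% to 76.3%, beside a median of 51.7% over all promoters. Whether GGGCGG is more frequent than this base content gives was not tested. These matches describe the letters only.

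Baiap2, chosen for its rise, was higher in every fasted sample than in every AL sample. This was so for 14.6% of all genes in F1, and the shares in F2 and F3 are not given here. Its normalized counts (reads scaled to a common library size by the TMM method) were 1080, 1317 and 1044 in AL samples i, j and k. They were 2679, 2805 and 2253 in F1, 2109, 1936 and 1771 in F2, and 2956, 2821 and 2750 in F3. The AL and F2 samples formed separate lower and middle ranges, and the F1 and F3 ranges overlapped at the top. The fitted log2 fold change from AL was 1.17 (SE 0.10) for F1, 0.76 (SE 0.10) for F2 and 1.31 (SE 0.10) for F3, which correspond to 2.25-, 1.69- and 2.48-fold. These contrasts are those that chose the gene. The level at day 2 was 0.41 log2 units (SE 0.10) under that of day 1, since the F2 minus F1 value was -0.41, and day 3 was 0.55 (SE 0.10) over day 2.

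**Figure D1:**
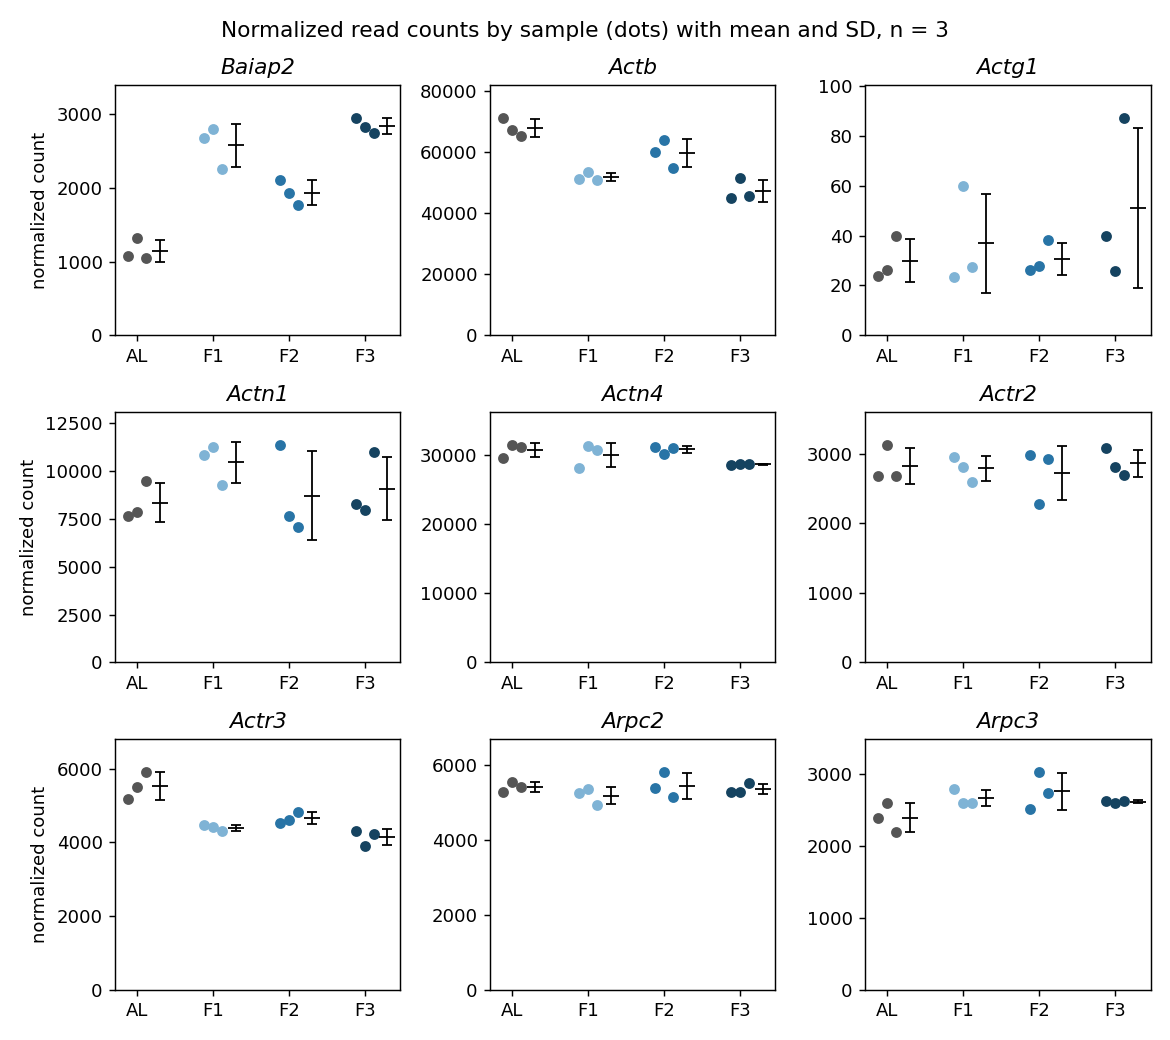
Normalized read count (y axis, from 0, scaled per gene) of the 9 genes in each of the 12 samples (dots, in the order i, j, k) by group, with the mean and SD of 3 samples as bars. Baiap2 was between 1044 and 1317 in AL and between 1771 and 2956 in the fasted samples. Actb and Actr3 were lower in each fasted sample than in any AL sample, as was so per day for 8.66% to 18% of all genes.

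Of the 8 other genes, Actb and Actr3 fell and the rest were not called in any comparison with AL. None was called higher, where 3.87% of all genes were in F1, 0.49% in F2 and 6.28% in F3, so a count of 0 among 8 genes is near the background and shows nothing particular to them. Actb and Actr3 were both called lower in F1 and in F3 (edgeR quasi-likelihood test, Benjamini-Hochberg adjustment over 13050 genes, threshold 0.05). Thus 2 of 8 were called lower in F1, where 2.69% of all genes were, and 2 of 8 in F3, where 5.77% were. Calls in both directions covered 6.56% of all genes in F1, 0.858% in F2 and 12% in F3. These shares themselves moved when 1 sample was left out, from 856 genes to 306 to 1451 in F1, from 112 to 34 to 157 in F2 and from 1572 to 790 to 2366 in F3. None of the 8 was called in F2, where 3 had an unadjusted p under 0.05 (Actb, Actr3 and Arpc3) and where the DESeq2 Wald test called 1, Actr3. The median log2 fold change of the 8 was -0.03 in F1, 0.00 in F2 and 0.00 in F3, beside 0.00, -0.01 and -0.01 over all genes tested. As these are bulk RNA samples, fewer cells of a type and less RNA per cell cannot be told apart, and all comparisons with AL share the same 3 AL samples.

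**Figure D2:**
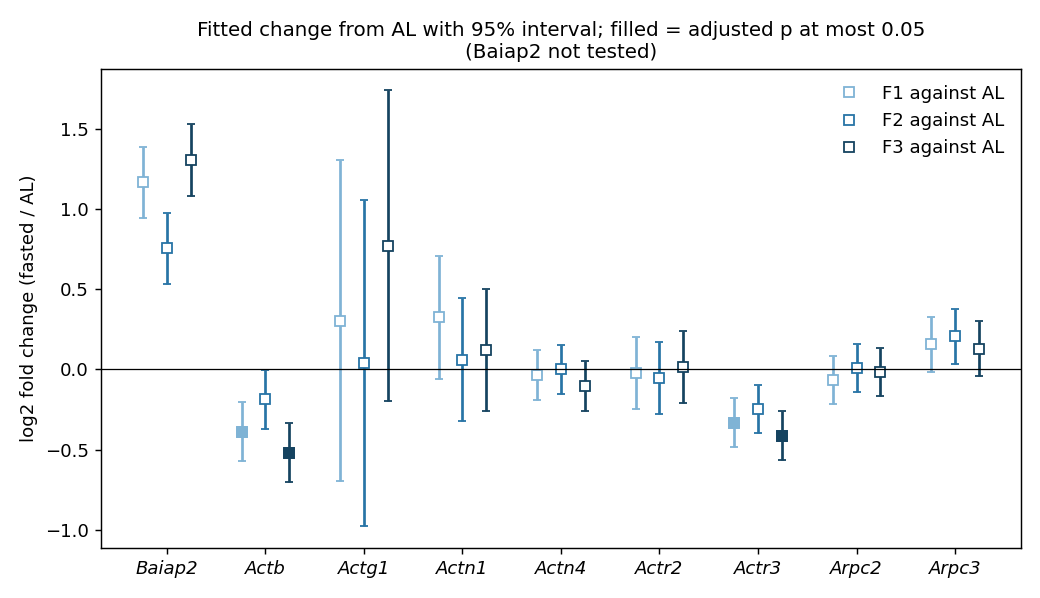
Fitted log2 fold change from AL (y axis) with its 95% interval for the 9 genes in F1, F2 and F3. Filled squares mark an adjusted p of at most 0.05. Baiap2 sits at 0.76 to 1.31, Actb and Actr3 sit under 0 on each day, and Actg1, which had few reads, has the widest intervals.

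Actb, which encodes the main cytoplasmic actin of non-muscle cells, had normalized counts of 71398, 67212 and 65390 in AL. They were 51315, 53562 and 51055 in F1, 60164, 64089 and 54898 in F2, and 45088, 51468 and 45553 in F3. Every fasted sample was under every AL sample, as was so for 14.1% of all genes in F1, 8.66% in F2 and 18% in F3, and the F1 and F3 ranges overlapped. In F1 the log2 fold change was -0.39 (SE 0.09, adjusted p = 0.0168 by edgeR) with a 95% interval of -0.57 to -0.20, and the level fell by 23.6%. In F3 it was -0.52 (SE 0.09, adjusted p = 0.00157), with an interval of -0.71 to -0.34. In F2 it was -0.19 (SE 0.09) and was not called (adjusted p = 0.379). The F1 call rested on the full set of samples: the adjusted p was 0.0683 without AL sample i, 0.0621 without F1 sample i, 0.0568 without F1 sample j and 0.0589 without F1 sample k, with log2 fold changes of -0.35, -0.38, -0.41 and -0.37. The F3 call held in each of 22 alternatives.

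Actb was also lower in F3 than in F2. The difference was -0.33 (SE 0.09, adjusted p = 0.0367 by edgeR), in a comparison where 5.94% of all genes were called and 2.32% were called lower. Every F3 sample was under every F2 sample, as for 12.1% of all genes, and no other of the 8 genes was called. This call was lost when only the 6 samples of F2 and F3 were fitted (-0.33, adjusted p = 0.124). It was lost too without F1 sample j or k (-0.33 in both, adjusted p = 0.0546 and 0.0514), without F2 sample i or j (-0.33 and -0.28, adjusted p = 0.0697 in both), and without F3 sample i or k (-0.30 and -0.31, adjusted p = 0.159 and 0.123). Between F2 and F1 the Actb difference of 0.20 (SE 0.09) was not called (adjusted p = 0.245), in a comparison where 1.43% of all genes were called and none of the 8. Actb alone of the 8 had an unadjusted p under 0.05 there, and DESeq2 called none of the 8.

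Actg1, which encodes the other cytoplasmic actin, was hardly covered. Its unscaled reads were 26, 26 and 36 in AL, 23, 57 and 27 in F1, 26, 28 and 38 in F2, and 43, 26 and 88 in F3. All 4 groups overlapped. The log2 fold changes of 0.30 (SE 0.46), 0.04 (SE 0.47) and 0.77 (SE 0.45) for F1, F2 and F3 were not called (adjusted p = 0.765, 0.984 and 0.314, edgeR), and the F3 interval ran from -0.20 to 1.74. Gamma-actin genes have near-identical copies, and reads with several alignments had been discarded by the authors, so this value is uncertain as a measure of gamma-actin RNA. Whether beta- and gamma-actin RNA differ in their change was not tested.

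Of the 6 actin isoform genes listed, Actb, Actg1 and Acta2 had an identifier in the tables used. Acta2, the smooth muscle actin that marks mural cells, was low, with 126 to 366 normalized counts over the 12 samples. Its log2 fold change was 0.33 (SE 0.31) in F1, 0.83 (SE 0.31) in F2 and 0.46 (SE 0.31) in F3, none of them called (adjusted p = 0.61, 0.278 and 0.403, edgeR). Its fitted values thus lay above 0 where those of Actb lay below.

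The alpha-actinin genes of non-muscle cells were not called in any comparison. Actn1 had 7639, 7856 and 9480 normalized counts in AL, 10830, 11249 and 9225 in F1, 11343, 7657 and 7077 in F2, and 8249, 7965 and 10947 in F3. One sample of F2 (i) and one of F3 (k) stood over the others of their group, and all groups overlapped with AL. The log2 fold changes were 0.33 (SE 0.18), 0.06 (SE 0.18) and 0.12 (SE 0.18), with adjusted p = 0.328, 0.917 and 0.731 (edgeR), and the F1 interval was -0.06 to 0.71.

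Actn4 was the steadier of the pair. It had 29627, 31488 and 31222 normalized counts in AL, 28070, 31344 and 30756 in F1, 31176, 30207 and 31042 in F2, and 28532, 28737 and 28662 in F3. The F3 samples lay within a narrow range under all AL samples, as for 18% of all genes. The log2 fold changes of -0.03, 0.00 and -0.10 (SE 0.07 each) were not called (adjusted p = 0.832, 0.999 and 0.407, edgeR), and the F3 interval was -0.26 to 0.05. Of the muscle-type alpha-actinins, Actn2 was not called and Actn3 was called higher in F3 (log2 fold change 1.36, SE 0.39, adjusted p = 0.0395, edgeR). Actn3 is named here after its values were seen: its mean was 41.5 normalized counts, and its F3 and AL samples overlapped.

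Within the Arp2/3 complex the change was seen in Actr3, which encodes ARP3. Its normalized counts were 5163, 5507 and 5909 in AL, 4459, 4408 and 4301 in F1, 4527, 4613 and 4831 in F2, and 4309, 3911 and 4227 in F3. All 9 fasted samples were under the lowest AL sample. Taken per day, this was so for 14.1% of all genes in F1, 8.66% in F2 and 18% in F3. The log2 fold change was -0.33 (SE 0.07, adjusted p = 0.0138, edgeR) in F1 and -0.41 (SE 0.07, adjusted p = 0.00209) in F3, with intervals of -0.48 to -0.18 and -0.57 to -0.26. In F2 it was -0.25 (SE 0.07, adjusted p = 0.14), with an interval of -0.40 to -0.10, and DESeq2 gave -0.24 with an adjusted p of 0.0266. The F1 call was lost without AL sample k (-0.28, adjusted p = 0.0593), F1 sample j (-0.34, adjusted p = 0.0609) or F1 sample k (-0.32, adjusted p = 0.0507), and the F3 call held in each of 22 alternatives. Neither step between days was called for Actr3, with 0.09 (SE 0.07, adjusted p = 0.582) from F1 to F2 and -0.17 (SE 0.07, adjusted p = 0.185) from F2 to F3.

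Actr2, the gene of ARP2, which pairs with ARP3 at the branch, had 2680, 3130 and 2681 normalized counts in AL, 2956, 2812 and 2599 in F1, 2978, 2280 and 2928 in F2, and 3077, 2811 and 2699 in F3. All groups overlapped. Its log2 fold changes of -0.02, -0.05 and 0.02 (SE 0.10 each) were not called (adjusted p = 0.935, 0.874 and 0.947, edgeR). The F3 interval of -0.21 to 0.24 lies above the Actr3 estimate of -0.41 for the same day, but the difference between the genes was not tested.

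Arpc2, which encodes a scaffold subunit that holds the complex to the mother filament, ranged from 4918 to 5813 normalized counts over the 12 samples. Its log2 fold changes were -0.07, 0.01 and -0.02 (SE 0.07 each), not called (adjusted p = 0.643, 0.98 and 0.918, edgeR), and the F3 interval was -0.17 to 0.13.

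Arpc3, another small subunit, had 2383, 2589 and 2190 normalized counts in AL, 2790, 2597 and 2595 in F1, 2511, 3025 and 2727 in F2, and 2626, 2588 and 2620 in F3. The F1 samples lay just over the AL samples, as for 14.6% of all genes. The log2 fold changes of 0.16, 0.21 and 0.13 (SE 0.08 each) were above 0 but not called (adjusted p = 0.297, 0.296 and 0.353, edgeR), with an F2 interval of 0.03 to 0.38 and an unadjusted p of 0.0233 on that day.

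All 10 listed Arp2/3 genes could be read, and Actr3 was the only one called, in F1 and in F3, with 0 of 10 called in F2 (2 with an unadjusted p under 0.05, as for 1675 of 13050 genes). One call of 10 is near the share of all genes called, 6.56% in F1 and 12% in F3. Of the rest, Arpc1a, Arpc1b, Arpc4, Arpc5 and the variant Arpc5l, had log2 fold changes of -0.10 to -0.01 in F1. Arpc5l, at 233 to 340 normalized counts, had -0.26 (SE 0.12, adjusted p = 0.183, edgeR) in F3. Actr3b, a paralog of Actr3, had at most 78.2 normalized counts. The median log2 fold change of the 10 was -0.02, 0.01 and -0.03 in F1, F2 and F3.

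**Figure D3:**
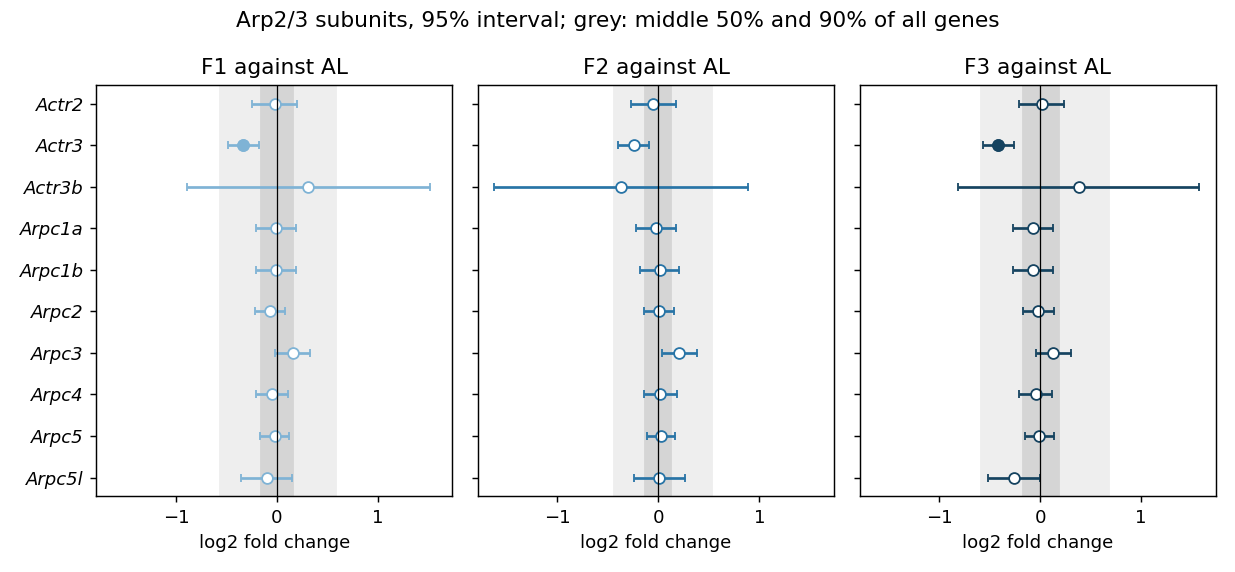
Fitted log2 fold change from AL (x axis) with its 95% interval for 10 Arp2/3 subunit genes, 1 panel per day of fasting. Filled circles mark an adjusted p of at most 0.05, and grey bands mark the middle 50% and 90% of all genes tested. Actr3 lies at -0.33 in F1 and -0.41 in F3, outside the inner band and within the outer one.

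The share of Arp2/3 reads that came from Actr3 needs no scaling between samples. It was 17.2%, 16.7% and 18.7% in AL, 14.8%, 14.4% and 14.4% in F1, 15.0%, 14.0% and 16.1% in F2, and 14.3%, 13.3% and 14.2% in F3. Each fasted sample was lower than each AL sample. The difference of the means was -2.98 percentage points in F1, -2.47 in F2 and -3.58 in F3, each with p = 0.1 in a two-sided exact permutation test (n = 3 per group), the smallest p that 3 against 3 samples allow. The ratio was chosen after the values had been seen, with Actr3 already lower in each fasted sample, so these p are no further support.

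Baiap2 reads per 1000 Actb reads of the same sample were 15.1, 19.6 and 16.0 in AL, 52.2, 52.4 and 44.1 in F1, 35.0, 30.2 and 32.3 in F2, and 65.6, 54.8 and 60.4 in F3. The AL, F2 and F1 ranges were separate in that order, and F3 lay above F1. The ratio includes the gene chosen for its rise and is a description, and it compares reads, not molecules, since no gene length was used.

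**Figure D4:**
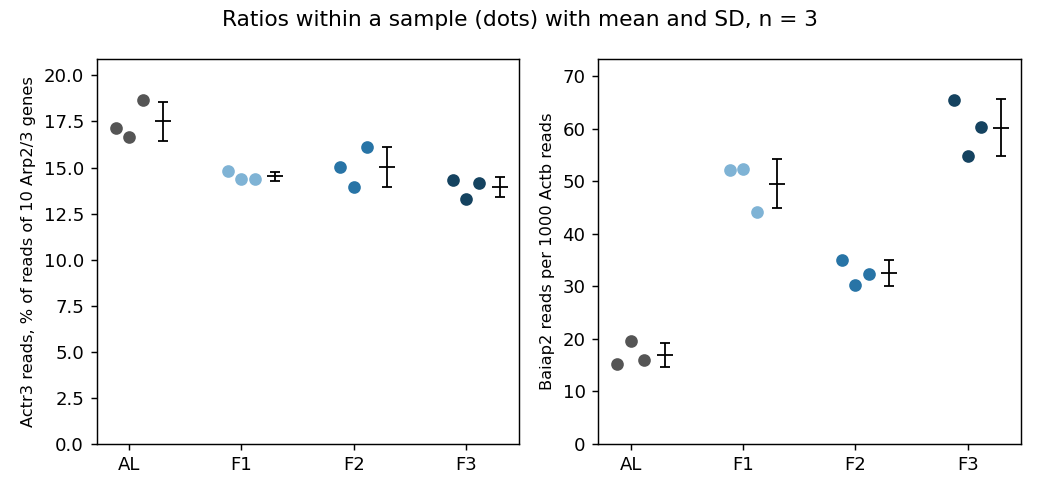
Left, Actr3 reads as a percent of the reads of 10 Arp2/3 genes of the same sample. Right, Baiap2 reads per 1000 Actb reads. Dots are the samples of each group and bars the mean and SD of 3. The Actr3 share was 16.7% to 18.7% in AL and 13.3% to 16.1% in the fasted samples.

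The joint test of the 4 groups called Actb (adjusted p = 0.00616, edgeR) and Actr3 (adjusted p = 0.008), 2 of the 8 genes where 10.1% of all genes were called. Genes called lower in both F1 and F3 made up 2.39% of all genes tested.

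Over the 12 samples, the log2 read count of Baiap2, scaled for depth, ran opposite to that of Actr3 (Pearson r = -0.922) and Actb (r = -0.876), which stood 40th and 154th from the lowest r of the 13050 features. Arpc3 (0.543), Actn1 (0.4), Actg1 (0.309) and Actr2 (0.132) had r above 0, and Arpc2 (-0.164) and Actn4 (-0.512) below. These r describe samples that share their group means. Once each group mean was subtracted, r was -0.093 for Actr3 and 0.224 for Actb. No p is given, since Baiap2 was chosen for its pattern over these groups.

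The 5 named genes most like Baiap2 by the same measure were Acadm, a medium-chain acyl-CoA dehydrogenase of fatty acid oxidation (r = 0.957), the adaptor gene Anks1a (0.957), the adhesion receptor gene Adgrg1 (0.95), Slc2a1, which encodes the glucose transporter of the blood-brain barrier (0.947), and Ankrd13d (0.947). None encodes an actin or an Arp2/3 subunit. With group means subtracted, r was 0.836, 0.664, 0.936, 0.694 and 0.374 in that order. Only 1150 features had a usable symbol and averaged 100 or more normalized counts, and 24 features without such a name or level stood nearer to Baiap2 than Acadm did.

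The wider actin machinery was read from 13 lists of 120 genes, of which 35 had an identifier in the tables used and 5 lists had none, so these counts cover part of the machinery. Outside the 9 genes, 26 could be tested. Of these, 0 were called in F1, 0 in F2 and 1, Actn3, was called higher in F3, beside 6.56%, 0.858% and 12% of all genes. An unadjusted p under 0.05 was found for 2, 3 and 4 of the 26, and for 2691, 1675 and 3388 of the 13050 genes. Their median log2 fold change was -0.04, -0.03 and -0.03. Baiap2l1, the I-BAR relative of Baiap2, had 344 to 566 normalized counts and log2 fold changes of 0.05, -0.29 and -0.01 (SE 0.14 each), none called (adjusted p = 0.888, 0.409 and 0.971, edgeR). The 4 WAVE complex genes read (Abi1, Abi2, Abi3 and Brk1) and the 9 filament capping genes read, which include Capza1, Capza2 and Capzb of capping protein, were not called on any day.

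The labelled cell type was checked with 64 markers, of which 12 had an identifier. None of the neuron, oligodendrocyte or fibroblast markers had one. The endothelial markers read were Pecam1, Slc2a1 and Abcb1a. Pecam1, the gene of CD31, had 31655 to 38792 normalized counts over the 12 samples. All its F1 samples lay over all AL samples, as for 14.6% of all genes, but it was not called (adjusted p = 0.233, edgeR). Slc2a1 was called higher in F1 (log2 fold change 0.43, adjusted p = 0.0109, edgeR) and in F3 (0.52, adjusted p = 0.00194). Abcb1a was not called on any day. The 4 microglial markers read (Aif1, C1qa, C1qb and C1qc) summed to at most 113 in any sample. The 3 mural markers read (Acta2, Abcc9 and Anpep) summed to 1908 to 4372 in AL, 2066 to 2365 in F1, 2451 to 4744 in F2 and 1689 to 4443 in F3, and no marker read was at 0 in all samples of a group. The sum is mostly Abcc9, and its fasted and AL ranges overlapped on each day. Acta2 alone was higher in all F2 samples (at least 236) than in all AL samples (at most 211), but was not called (adjusted p = 0.278, edgeR). The share of all genes higher in this way in F2 is not given here. The astrocyte marker Aldoc had 1826 to 2155 in AL, 1702 to 2277 in F1, 1530 to 2239 in F2 and 1546 to 1588 in F3, where its samples lay under those of AL, as for 18% of all genes (log2 fold change -0.34, adjusted p = 0.111, edgeR). The part of other cells in the changes of Actb and Actr3 was not tested.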

How the data were processed

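Raw read counts per gene had been deposited by the authors, 1 file for each technical replicate. The authors had trimmed and filtered reads from strand-specific polyadenylated libraries (bcl2fastq 2.18.0.12), aligned them to Rnor_6.0 with STAR, dropped reads with several alignments, and counted those on exons with HTSeq 0.5.3; the strand setting is not given in the sources used here. Counts were summed here over technical replicates a to d. Features with at least 1 read in each of 12 samples were fitted with edgeR 4.0.16 (TMM scaling, 4 group means, robust quasi-likelihood F test, Benjamini-Hochberg adjustment, threshold 0.05) in R 4.3.3. Intervals are 95% intervals from the fitted SE. Symbols were matched to Ensembl identifiers through gene tables of the study, and 2043 features had one. The main one was at hand only in shortened form, so most features had no symbol. Most genes named here have symbols that begin with A, B or C. The list genes, markers and genes most like Baiap2 are thus drawn from that part.

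The 9 genes, the lists and the tests were chosen with earlier results of these data known. The rule for named genes took the 9, list genes called against AL with a mean of at least 100 normalized counts (at most 4 per list; beyond the 9 there was none), and the 5 genes nearest to Baiap2 by Pearson r of log2 CPM (prior count 2). The other list genes and markers in the text fall outside the rule and were named to describe their list, after their values were seen. Alternatives were other scalings, filters of 10 reads, none or filterByExpr, the DESeq2 1.42.0 Wald test, only the 6 samples compared, a replicate block, and each sample left out. The script was run on simulated data, with a pass condition that covered only planted changes larger than those of Actb and Actr3. Levels were not compared between genes, since lengths were not used here. Samples are pools of separate rats from independent experiments, and p-values measure the spread between them.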

Additional observations from a re-analysis of the deposited data

Results flagged for a closer look

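The change of Actb from AL was called different between day 2 and day 3 of fasting (log2 -0.33, adjusted p = 0.0367, edgeR). Actb was lower in each of the 3 F3 samples than in each of the 3 F2 samples, as for 12.1% of all genes. The call was lost in 7 of 22 alternatives. Among them was the fit of only the 6 samples compared (adjusted p = 0.124, edgeR). The log2 fold change of Actb from AL was -0.19 in F2 and -0.52 in F3. Groups of 3 samples were not searched for single samples far from the rest, but F2 sample j stood apart in its group. The chi-square per degree of freedom was 48.84 for F2 samples i and j and 51.5 for j and k, beside 11.47 for i and k. Without F2 sample j, 1451 genes were called in F1 and 2366 in F3. The Actb difference between F3 and F2 was then -0.28 (adjusted p = 0.0697, edgeR).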

How the results depend on the processing

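The log2 fold changes of Baiap2 were 1.10 to 1.27 in F1, 0.69 to 0.86 in F2 and 1.25 to 1.41 in F3 over 22 alternatives. Baiap2 was chosen for its rise, and every fasted sample was over every AL sample. Leaving 1 sample out could therefore not turn its direction, which is no support for the rise. Relative to Actb reads, a ratio chosen after seeing the data, the Baiap2 values were 1.557 in F1, 0.950 in F2 and 1.839 in F3. The log2 fold changes of Actb and Actr3 against AL kept their direction, where all fasted samples were under all AL samples. Relative to all Arp2/3 reads, Actr3 gave -0.329 in F3. Of the 8 other genes, 2 were called in F3 and in the joint test under each alternative run. With 1 sample left out, 0 to 2 were called in F1, with Actb at -0.418 to -0.352 and Actr3 at -0.380 to -0.284, and 0 to 1 between F3 and F2, with Actb at -0.398 to -0.280. The DESeq2 Wald test called 1 gene in F2 (Actr3, -0.244), and the fit of the 6 samples compared called 0 between F3 and F2 (Actb, -0.326). The cause was not tested.

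Genes that were never called changed sign around 0. With 1 sample left out, Actg1 ran from -0.229 to 0.553 (F1 against AL), -0.145 to 0.293 (F2 against AL), -0.506 to 0.270 (F2 against F1). Actn1 ran from -0.176 to 0.191 (F2 against AL), -0.040 to 0.223 (F3 against AL), -0.103 to 0.297 (F3 against F2). Actn4 ran from -0.065 to 0.013 (F1 against AL), -0.023 to 0.015 (F2 against AL), -0.011 to 0.067 (F2 against F1). Actr2 ran from -0.065 to 0.049 (F1 against AL), -0.121 to 0.061 (F2 against AL), -0.039 to 0.087 (F3 against AL), -0.099 to 0.082 (F2 against F1), -0.045 to 0.136 (F3 against F2). Arpc2 ran from -0.043 to 0.048 (F2 against AL), -0.064 to 0.027 (F3 against F2). Arpc3 ran from -0.023 to 0.112 (F2 against F1). With total counts as the scaling, Actn4 in F2 was -0.035, Actr2 in F3 -0.028 and Arpc2 in F2 -0.028.

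The sample letters i, j and k were not taken as pairs. The labels do not say that a letter marks a shared batch, and only 2 of the 18 same-letter correlations were over 0.1. Deviations from the group means correlated at -0.0172 to 0.139 for the 18 pairs with the same letter and at -0.193 to 0.204 for other pairs. Of the 18, 15 were above 0, and 5 of 12 samples were closest to a sample of their own letter. With the letter as a replicate block, Actb was -0.388 in F1 and Actr3 -0.331, no call of the 8 genes changed, and 108 in place of 186 of all genes were called between F2 and F1.

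Over all genes, DESeq2 called 359 in F2 against 112, 616 between F2 and F1, and 1242 between F3 and F2 against 775, and the 6-sample fits called 0, 65 and 260. Total counts as the scaling moved the share of calls that were higher from 59% to 38.7% in F1, from 57.1% to 46% in F2 and from 52.1% to 41% in F3, and upper-quartile scaling moved it to 67.4% in F2. The few reads of Actg1 and Actr3b went with wide intervals.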
